A study of Drosophila melanogaster with 16 samples.

Results

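The change of the larval midgut transcriptome between the second and the third larval instar (L2 and L3) was examined in Drosophila melanogaster whose enterocytes carried an RNAi hairpin against Hnf4. Membership was set by the sample labels, and 8 of the 16 libraries of the series belonged to it: 4 libraries of Hnf4 RNAi L3 midguts, taken on day 4 after egg laying, and 4 libraries of Hnf4 RNAi L2 midguts, taken on day 3. These larvae were mex-GAL4 / UAS-Hnf4 RNAi. The other 8 libraries, 4 of control L3 and 4 of control L2 midguts, were mex-GAL4 / attP40 and served only to test where the change with instar differed between the genotypes. All larvae were reared on a diet of yeast only at 25 °C in vials of 40 embryos.

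Some features of the design limit what the groups stand for. The mex-GAL4 driver acts in enterocytes, the absorptive cells of the midgut, so the other cells of the dissected organ did not express the hairpin. Hnf4 was targeted by a single hairpin, and the control larvae carried the empty attP40 landing site and no hairpin, so silencing of Hnf4 and expression of a hairpin cannot be told apart. Each L3 library pooled 10 midguts and each L2 library 30, so day, instar and pool size cannot be told apart either.

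Hnf4 is the fly member of the hepatocyte nuclear factor 4 family of nuclear receptors. In flies and mammals these receptors act in the gut and liver on genes of lipid absorption, lipid breakdown and mitochondrial function. Larval enterocytes are large polyploid cells that grow by endocycles, that is, rounds of DNA replication without division, and secrete the digestive enzymes. A pulse of the steroid hormone ecdysone drives each moult, and most of larval growth takes place after the moult to L3.

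The 4 Hnf4 RNAi L3 libraries held 48611297 to 57771857 counts and the 4 Hnf4 RNAi L2 libraries 44546248 to 58986079. In a principal component analysis of all 16 libraries, the first component carried 72.7% of the variance and separated the days, and the second carried 8.71% and separated the genotypes. The third component carried 2.66%, and on it replicate 3 of the Hnf4 RNAi L3 midguts scored -42.9 while the other 3 libraries of that group scored 11.9 to 12.7. Levels are given as CPM, the counts of a gene scaled to the effective library size. Replicate 3 was also the one library of the group without fat body transcripts. The summed level of the 8 fat body markers tested was 1139, 875, 14.0 and 2884 CPM in Hnf4 RNAi L3 midguts, against 22.1 to 52.0 CPM in Hnf4 RNAi L2 midguts, 24.5 to 141 CPM in control L3 midguts and 12.3 to 18.6 CPM in control L2 midguts.

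The gap was made up of larval serum proteins and other secretory products of the fat body, the main storage tissue of the larva. Lsp1beta, a storage protein of the hemolymph, stood at 387, 291, 0.130 and 1000.1 CPM in Hnf4 RNAi L3 midguts, against 0, 0, 0.183 and 0 CPM in Hnf4 RNAi L2 midguts. Lsp1alpha, its sister gene, had 223, 102, 0 and 492 CPM in Hnf4 RNAi L3 midguts and no count in the 4 Hnf4 RNAi L2 libraries. For both genes replicates 1, 2 and 4 were high and replicate 3 was level with the L2 libraries. The genes that rose most in the comparison and lost that call without replicates 1, 2 and 4 were Lsp1beta, Lsp1alpha, Lsp1gamma, Obp99b, Lsp2 and Fbp2. Lsp1gamma had 418, 382, 11.99 and 1089.8 CPM in Hnf4 RNAi L3 midguts, against 7.77, 6.34, 5.38 and 3.22 CPM in Hnf4 RNAi L2 midguts, and its replicate 3 also lay above all L2 libraries. Without replicates 1, 2 and 4 of Hnf4 RNAi L3 and replicate 3 of control L3, 366 of the 493 genes with a called interaction kept the call, and without the 3 Hnf4 RNAi libraries 1595 of the 1842 genes called higher and 1983 of the 2339 called lower kept theirs.

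Some fat body transcripts were also present in L2 midguts. apolpp, the precursor of the main lipoprotein of the hemolymph, had 75.1, 72.9, 0.562 and 159 CPM in Hnf4 RNAi L3 midguts, against 10.3, 16.3, 35.9 and 23.99 CPM in Hnf4 RNAi L2 midguts. The clotting factor gene fon had 17.9, 16.1, 0.0648 and 53.9 CPM in Hnf4 RNAi L3 midguts, against 2.605, 2.87, 6.74 and 5.90 CPM in Hnf4 RNAi L2 midguts. For both genes replicate 3 of the L3 group was the lowest of the 8 libraries and the other 3 L3 libraries were the highest. The plots of fat body transcripts by library show this split on a log scale.

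**Figure D1:**
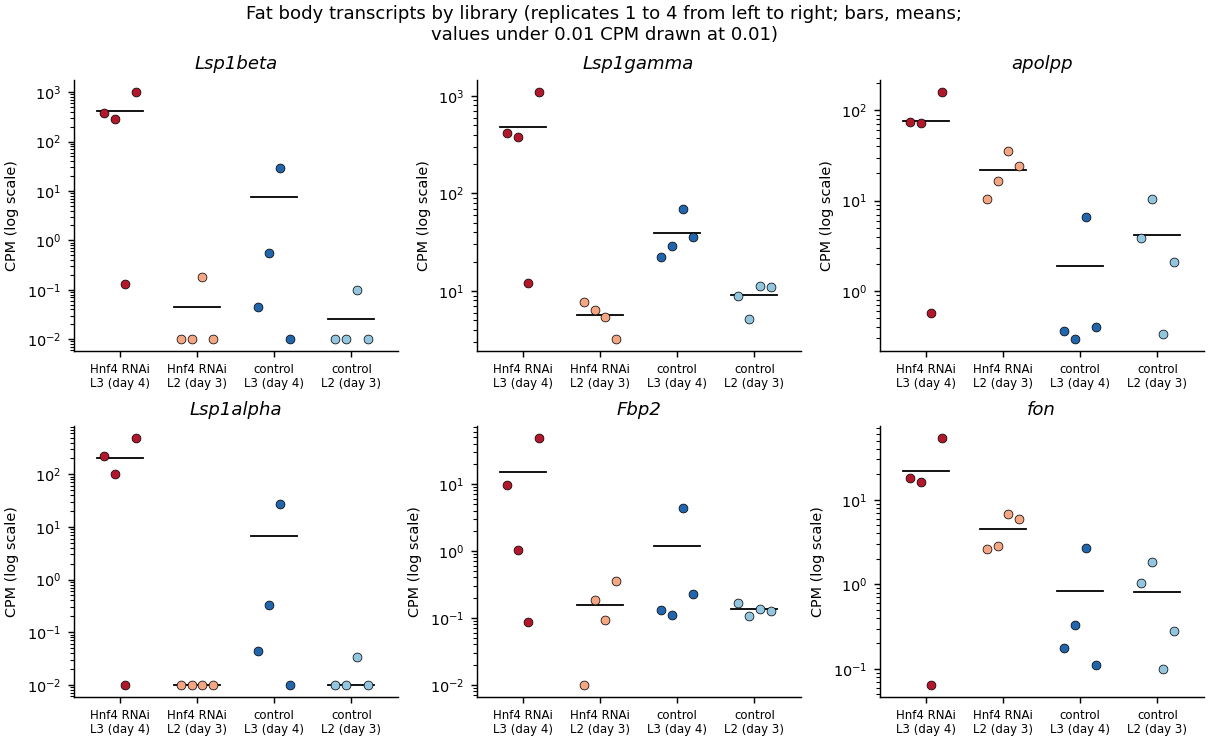
Levels of 6 fat body transcripts in CPM (vertical axes, log scale, values under 0.01 drawn at 0.01) in each library of the 4 groups (horizontal axes, replicates 1 to 4 from left to right, bars are means). In Hnf4 RNAi L3 midguts, replicates 1, 2 and 4 lay far above replicate 3 for every gene shown, with 387, 291, 0.130 and 1000.1 CPM in replicates 1 to 4 for Lsp1beta.

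The targeted gene itself was measured first. Hnf4 (FBgn0004914), on chromosome 2L at 8687226 to 8709611 of BDGP6, minus strand, had 67.4, 58.8, 63.8 and 68.3 CPM in Hnf4 RNAi L3 midguts, against 45.7, 48.7, 50.6 and 48.5 CPM in Hnf4 RNAi L2 midguts. The L3 mean of 64.6 ± 4.31 CPM was 1.34-fold the L2 mean of 48.4 ± 1.998 CPM (SD, n = 4 each), the groups did not overlap, and the exact permutation test gave the smallest two-sided p that 4 against 4 libraries allow, 0.0286. The log2 fold change of 0.42 (SE 0.05, edgeR quasi-likelihood adjusted p = 2.17e-06) stayed under the minimum of 0.5 used for calls. Hnf4 in silenced midguts amounted to 50.6% of the control level in L3 and 52.6% in L2, with the same exact p of 0.0286 for both days, and its change with instar did not differ detectably between the genotypes (interaction -0.06, SE 0.07, adjusted p = 0.746). The deposited counts do not separate enterocytes from the other cells, so the depth of silencing within enterocytes was not measured. In such bulk tissue, fewer cells of a type and less RNA per cell cannot be told apart.

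The instar change was broad. Of 9801 genes tested, 1842 were called higher in Hnf4 RNAi L3 than in Hnf4 RNAi L2 midguts (18.8% of those tested) and 2339 were called lower (23.9%), 42.7% in either direction, with a call requiring an adjusted p under 0.05 and a log2 fold change of at least 0.5 in size. A change of 2-fold or more was seen for 855 of the higher and 1399 of the lower genes, and the 4 libraries of each group did not overlap for 5723 genes (58.4%). Among the called genes 44.1% were higher. When the libraries were scaled by their totals alone, 1116 genes were called higher and 3347 lower, so that 25.0% were higher, because that scaling moved the median gene to -0.28 on the log2 scale, against -0.01 with TMM scaling. All changes below are relative to the TMM scale, and all counts of list members stand beside the shares of 18.8% higher and 23.9% lower.

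The control midguts gave 1668 higher (17.0%) and 2176 lower genes (22.2%) in the same fit, and most calls had a counterpart there: 1263 genes were called higher and 1881 lower in both genotypes. The difference between the 2 changes was tested for each gene as an interaction, the log2 change with instar in Hnf4 RNAi midguts minus that in control midguts. It was called above 0 for 254 genes (2.59%) and below 0 for 239 (2.44%), 5.03% in all. Of the 568 genes called higher in Hnf4 RNAi midguts and not in controls, 110 had a called interaction, and of the 455 called lower only in Hnf4 RNAi midguts, 46 had one, so for the others a different response was not shown. A further 402 genes were called higher in control midguts alone, and 72 of them had a called interaction below 0. Opposite calls in the 2 genotypes were found for 14 genes, 11 of them higher in Hnf4 RNAi L3 midguts, and all 14 had a called interaction.

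**Figure D2:**
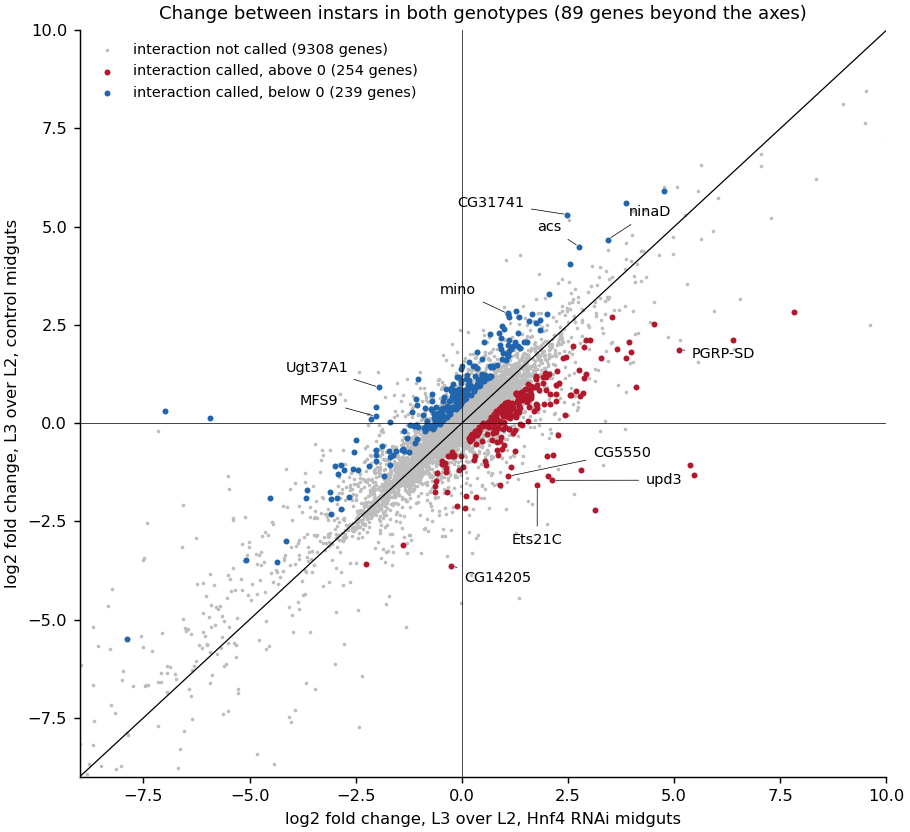
Log2 fold change of L3 over L2 in Hnf4 RNAi midguts (horizontal axis) and in control midguts (vertical axis) for the genes tested, each point a gene, with the line of equal change and 89 genes beyond the axes. Red points are the 254 genes with a called interaction above 0 and blue points the 239 below 0, and the remaining genes lie along the line of equal change.

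Genes that averaged 10 CPM or more in either group, with no overlap of the libraries and a call that held without replicates 1, 2 and 4 of Hnf4 RNAi L3 were ranked by fold change. LysX, a lysozyme gene at 3L 1194739 to 1195302, had 117, 25.7, 107 and 55.9 CPM in Hnf4 RNAi L3 midguts, against 0.0398, 0, 0.122 and 0.259 CPM in Hnf4 RNAi L2 midguts, a log2 fold change of 9.52 (SE 0.72, adjusted p = 4.03e-09). Its L3 libraries spread over several fold, yet all of them stood far above every L2 library. Snmp1, a CD36-related sensory neuron membrane protein, had 10.5, 12.4, 15.97 and 8.33 CPM in Hnf4 RNAi L3 midguts, against 0, 0.0152, 0.0305 and 0.0370 CPM in Hnf4 RNAi L2 midguts (8.98, SE 0.31, adjusted p = 9.76e-13). CG40486 was at 6.34 to 13.8 CPM in Hnf4 RNAi L3 midguts, against 0 to 0.0398 CPM in Hnf4 RNAi L2 midguts, too few L2 counts for a fold change. The other 9 of the 12 highest genes in this ranking gained 4.02 to 6.04 on the log2 scale. They included Ugt301D1, a UDP-glycosyltransferase (5.64), Jhbp14, of the juvenile hormone binding protein family (4.77), and AANATL6, an arylalkylamine N-acetyltransferase-like enzyme (4.22).

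Iron transport was represented among them by Tsf1, a secreted transferrin. It had 12.6, 11.9, 12.2 and 13.3 CPM in Hnf4 RNAi L3 midguts, against 0.974, 0.652, 0.580 and 0.906 CPM in Hnf4 RNAi L2 midguts (4.02, SE 0.32, adjusted p = 8.61e-09). The 4 L3 libraries were tightly grouped whether or not they held fat body transcripts. All 12 genes were also called higher in control L3 midguts, and Jhbp14 was the one with a called interaction (-1.15, SE 0.33, adjusted p = 0.0361). That call was lost without replicate 1 of Hnf4 RNAi L2 (-0.77, adjusted p = 0.0544), among 8 of the 16 libraries whose removal raised its adjusted p to between 0.0534 and 0.0841.

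The 12 lowest changes by the same ranking included 5 Osiris genes and 2 cuticle protein genes. Ccp84Ae, a cuticle protein, had no count in the 4 Hnf4 RNAi L3 libraries, against 152, 232, 120.4 and 154 CPM in Hnf4 RNAi L2 midguts, which is at least 10975-fold lower with the L3 level set at 3 counts over the group (0.0150 CPM). The uncharacterised genes CG14147, at 99.7, 111, 150.4 and 144 CPM, and CG14095, at 44.1, 71.1, 39.0 and 77.3 CPM in Hnf4 RNAi L2 midguts, were likewise without a count in Hnf4 RNAi L3 midguts. Both were thus at least 8420-fold and at least 3860-fold lower. Osi18, at 86.2 to 125 CPM in Hnf4 RNAi L2 midguts and at 0 counts in Hnf4 RNAi L3 midguts, was at least 6751-fold lower, and Osi7 at least 2371-fold. In all, 65 genes called lower had no count in any of the 4 Hnf4 RNAi L3 libraries.

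Osi18 and Osi7 belong to the Osiris genes, which encode transmembrane proteins of cuticle-secreting epithelia and lie mostly in one cluster on chromosome 3R. Of the 25 listed, 12 had enough counts to be tested, and 11 fell in Hnf4 RNAi midguts and 11 in controls. None had a called interaction (0 above and 2 below 0 at an unadjusted p under 0.05, and 0 and 1 with DESeq2). Their summed level was 1.20 to 1.84 CPM in Hnf4 RNAi L3 midguts, against 937 to 1433 CPM in Hnf4 RNAi L2 midguts. Among them Osi19 was at 0 to 0.0216 CPM and Osi20 at 0 to 0.0864 CPM in Hnf4 RNAi L3 midguts, against 103 to 180.3 and 174 to 279 CPM in Hnf4 RNAi L2 midguts. Of the 38 cuticle proteins tested, out of 125 listed, 24 fell and 2 rose. Their summed level was 16.3 to 28.2 CPM in Hnf4 RNAi L3 midguts, against 590.1 to 799 CPM in Hnf4 RNAi L2 midguts. The 7 Ccp84A genes lie side by side at 3R 6686728 to 6704903, and all 4 that could be tested fell. A gene near 0 in L3 could pass the count filter only through the L2 libraries. The counts of lower Osiris and cuticle genes thus follow in part from the filter.

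Chitin genes followed. Of 24 genes of chitin synthesis and turnover, 16 fell and 3 rose. Cht5, the chitinase of the moult, had 0.254, 0, 0.346 and 0.115 CPM in Hnf4 RNAi L3 midguts, against 21.5, 25.6, 16.9 and 15.01 CPM in Hnf4 RNAi L2 midguts (-6.76, SE 0.50, adjusted p = 3.27e-09), and obst-A, a chitin-binding organiser of the cuticle matrix, fell by 5.71 on the log2 scale. mmy, which makes the activated sugar used for chitin, rose by 0.75. With total scaling, 0 of the 24 chitin genes rose and 17 fell, and mmy, at 0.49, was no longer past the minimum.

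The midgut proper secretes no cuticle, whereas trachea attached to a dissected gut are lined with it. The 6 tracheal markers tested summed to 31.6, 32.0, 40.3 and 21.8 CPM in Hnf4 RNAi L3 midguts, against 186, 139, 167 and 194 CPM in Hnf4 RNAi L2 midguts, and 5 of them fell. They included uif (-3.83) and the chitin deacetylase genes verm (-2.62) and serp (-2.41), which act in the tracheal lumen. The tracheal markers thus fell in the same libraries as the cuticle genes. The part of tracheal tissue in the cuticle result was not tested.

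Genes of ribosome production fell. Of 36 nucleolar ribosome biogenesis genes, 35 were called lower in Hnf4 RNAi L3 than in Hnf4 RNAi L2 midguts, with a median log2 fold change of -2.32, against a median of -0.01 over all genes. Their summed level was 559 to 789.9 CPM in Hnf4 RNAi L3 midguts, against 2587 to 2977 CPM in Hnf4 RNAi L2 midguts. Fib, the methyltransferase fibrillarin of the nucleolus, had 25.3, 19.9, 13.2 and 14.3 CPM in Hnf4 RNAi L3 midguts, against 142, 179, 175 and 180.4 CPM in Hnf4 RNAi L2 midguts (-3.21, SE 0.19, adjusted p = 2.95e-10). Its L3 libraries lay several fold under all L2 libraries. Control midguts also had 35 of 36 called lower, with a median of -2.33, and no gene of the list had a called interaction or one at an unadjusted p under 0.05 (0 above and 0 below 0 with DESeq2).

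Further lists were mostly lower. Of 16 subunits of RNA polymerases I and III, which transcribe ribosomal and transfer RNA, 15 fell (median -1.44). Of 72 mitochondrial ribosomal proteins, 69 fell (median -1.33), and of 28 genes of DNA replication and the endocycle, 24 fell (median -1.02). The replicative helicase subunit Mcm5 was at 5.65, 5.58, 5.21 and 4.85 CPM in Hnf4 RNAi L3 midguts, against 13.9, 14.4, 17.0 and 15.95 CPM in Hnf4 RNAi L2 midguts (-1.53, SE 0.13, adjusted p = 2.44e-08). Of 19 genes of purine, pyrimidine and one-carbon synthesis, 1 rose and 11 fell, including ras, the IMP dehydrogenase (-1.79), and Sam-S, which makes the methyl donor S-adenosylmethionine (-1.67). Mitotic genes did not follow this pattern: 1 of 22 was called, as higher (median 0.06). In control midguts 9 were called higher and 1 lower (median 0.54), and 1 and 2 with total scaling. The interaction was called for 0 of the 22.

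Cytosolic ribosomal proteins fell less in size but widely. Of the 82 tested, 59 were called lower in Hnf4 RNAi L3 midguts, with a median of -0.58, and the 2 groups of libraries did not overlap for any of the 82, against 58.4% of all genes tested. RpS2 had 1023, 1053, 909 and 916 CPM in Hnf4 RNAi L3 midguts, against 1879, 1913, 1873 and 1850.2 CPM in Hnf4 RNAi L2 midguts (-0.95, SE 0.05, adjusted p = 7.35e-11). It was among the genes with the largest losses in CPM, together with the elongation factor eEF2 (-0.61), the ribosomal proteins RpL3, RpL4 and sta (-0.76, -0.69 and -0.98) and sesB, the mitochondrial ADP/ATP carrier (-0.68). In control midguts 17 were called lower, with a median of -0.44. The interaction was called for none, but 48 of the 82 had one below 0 at an unadjusted p under 0.05 and 0 above 0, while DESeq2 called 0 above and 0 below 0. With total scaling the count of ribosomal proteins called lower was 81 in Hnf4 RNAi midguts and 81 in control midguts, with medians of -0.85 and -0.73.

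Upstream of these lists, Myc, the transcription factor that drives ribosome production, had 22.7, 16.9, 16.4 and 12.7 CPM in Hnf4 RNAi L3 midguts, against 79.8, 64.9, 68.9 and 92.2 CPM in Hnf4 RNAi L2 midguts. The groups did not overlap, and the gene fell by 2.15 on the log2 scale (SE 0.14, adjusted p = 6.47e-10) in Hnf4 RNAi midguts and by 2.03 in control midguts. Mnt, which competes with Myc for its partner Max, went the other way, with 65.6, 69.8, 85.1 and 81.4 CPM in Hnf4 RNAi L3 midguts, against 31.1, 31.2, 29.2 and 28.1 CPM in Hnf4 RNAi L2 midguts (1.34, SE 0.10, adjusted p = 6.17e-09). srl, the fly PGC-1 coactivator, fell by 2.12 (adjusted p = 4.47e-09) and the insulin receptor gene InR by 0.81 (adjusted p = 8.59e-07). Over the 21 genes of growth signalling, 5 rose and 3 fell, beside 18.8% and 23.9% over all genes tested. foxo, the transcription factor that insulin signalling restrains, had a log2 fold change of -0.30 (adjusted p = 0.000357) and was not called, although with total scaling it passed at -0.57.

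Aminoacyl-tRNA synthetases were a partial exception. Of the 20 cytosolic ones, 13 fell in Hnf4 RNAi midguts and 19 in control midguts, and 2 had a called interaction above 0. These were ValRS, at -0.40 in Hnf4 RNAi and -1.01 in control midguts (interaction 0.61, adjusted p = 5.02e-05), and GluProRS, at -0.19 and -0.82 (interaction 0.63, adjusted p = 3.62e-05). Of 45 translation factors, 18 fell, with the ribosome maturation factor eIF6 at -1.64, and 1 rose, eIF4G2 at 0.79.

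**Figure D3:**
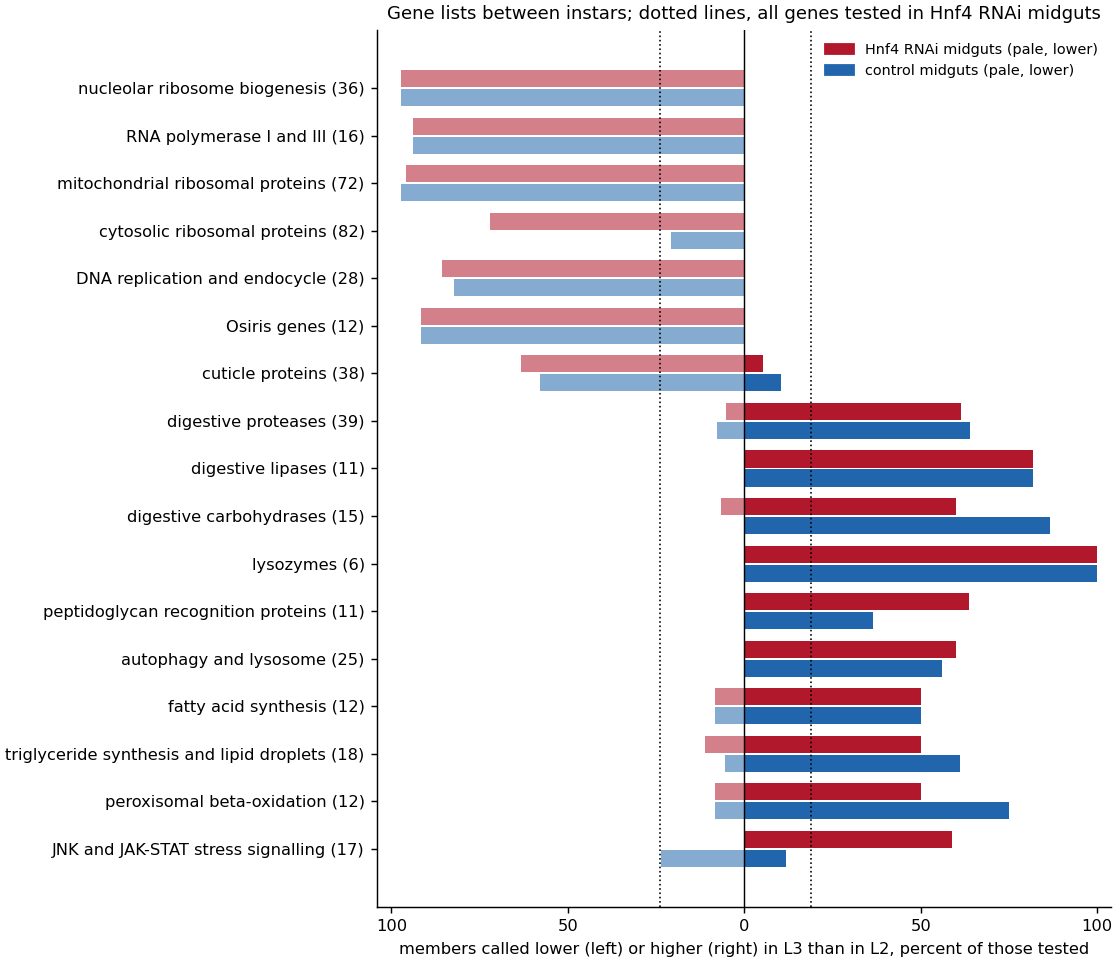
Percent of the tested genes of each list (number tested in parentheses) called higher, to the right of 0, or lower, to the left, in L3 than in L2, with Hnf4 RNAi midguts in red above control midguts in blue. Dotted lines mark the share over all genes tested in Hnf4 RNAi midguts, 18.8% higher and 23.9% lower; the nucleolar list reaches 35 of 36 lower in both genotypes and the stress signalling list is higher mainly in Hnf4 RNAi midguts.

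Digestive enzymes made up most of the largest gains in abundance. Of 39 digestive proteases, 24 rose and 2 fell in Hnf4 RNAi midguts. Jon66Ci, a Jonah serine protease, had 10195, 10426, 10538 and 12059 CPM in Hnf4 RNAi L3 midguts, against 2272, 3304, 4339 and 3095 CPM in Hnf4 RNAi L2 midguts (1.73, SE 0.14, adjusted p = 9.37e-09). Jon65Aiv had 15018, 14178, 21089 and 24272 CPM in Hnf4 RNAi L3 midguts, against 8624, 5343, 4634 and 6544 CPM in Hnf4 RNAi L2 midguts (1.57). The largest gains were ranked among genes without overlap of the groups, so the lack of overlap in such genes was set by that choice. All 4 genes of the Jon65A cluster, at 3L 6039155 to 6054443, rose. Near-identical copies within such clusters can share reads, so the split between neighbours is uncertain.

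For some proteases the gain was larger in Hnf4 RNAi than in control midguts. alphaTry, a trypsin, had 340.4, 233, 383 and 382 CPM in Hnf4 RNAi L3 midguts, against 79.6, 61.8, 66.5 and 75.3 CPM in Hnf4 RNAi L2 midguts, and in control midguts it had 175, 134, 197 and 195 CPM in L3 against 71.8, 78.9, 66.2 and 64.3 CPM in L2. The log2 changes of 2.24 and 1.32 differed by 0.92 (SE 0.20, adjusted p = 0.00946). In all 5 proteases had an interaction above 0 and 2 below 0, counts that were 2 and 2 without replicates 1, 2 and 4 of Hnf4 RNAi L3. In contrast, CG18179, a predicted serine protease, had 2899, 3783, 3006 and 3966 CPM in Hnf4 RNAi L3 midguts, against 1729, 1776, 1505 and 1441 CPM in Hnf4 RNAi L2 midguts. It rose by 1.08 in Hnf4 RNAi and by 2.80 in control midguts (interaction -1.72, SE 0.14, adjusted p = 3.12e-06).

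Lysozymes, which digest bacterial cell walls, all rose. The 6 tested lie among 7 genes at 3L 1194739 to 1228238. LysD had 6037, 5733, 7795 and 8713 CPM in Hnf4 RNAi L3 midguts, against 1445, 1567, 2073 and 1716 CPM in Hnf4 RNAi L2 midguts (2.06, SE 0.14, adjusted p = 1.08e-09), and LysB gained 2.39. All 6 rose in control midguts as well, with no called interaction (1 above and 0 below 0 at an unadjusted p under 0.05, and 0 and 0 with DESeq2). The lysozyme copies are also close paralogs.

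Most lipases rose in both genotypes, and some rose less under Hnf4 RNAi. Of 11 digestive lipases, 9 were called higher and 0 lower in Hnf4 RNAi L3 midguts, with a median of 1.51, and 9 were called higher in controls, with a median of 1.75. mag, the main intestinal triglyceride lipase, at 3L 20460683 to 20462274, had 2941, 3165, 3939 and 5415 CPM in Hnf4 RNAi L3 midguts, against 258, 271, 221 and 232 CPM in Hnf4 RNAi L2 midguts. Every L3 library exceeded every L2 library more than 10-fold, giving a log2 change of 3.98 (SE 0.16, adjusted p = 3.64e-12), and the interaction was -0.14 (SE 0.20, adjusted p = 0.763). CG6277, another lipase, rose by 3.39 in Hnf4 RNAi and by 3.87 in control midguts. The interaction was called below 0 for 3 of the 11 lipases and above 0 for 0, with -0.71 for CG17191 (adjusted p = 5.84e-05), -0.73 for CG6295 (a call lost without any of 11 single libraries, at -0.78 to -0.67) and -0.61 for CG15534. Of these, CG17191 and CG6295 rose in both genotypes, and CG15534 was called in neither. Without replicates 1, 2 and 4 of Hnf4 RNAi L3, 2 lipases were called lower and 4 had an interaction below 0.

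Among carbohydrases the change with instar often differed between the genotypes. Of 15, 9 rose and 1 fell in Hnf4 RNAi midguts, while 13 rose and 0 fell in controls, and 8 had a called interaction below 0 (2.44% of all genes tested) against 0 above. The alpha-amylase gene Amy-d had 662, 836, 689.8 and 727 CPM in Hnf4 RNAi L3 midguts, against 375, 394, 376 and 386 CPM in Hnf4 RNAi L2 midguts. In control midguts it had 1684, 1502, 2111 and 1698 CPM in L3 against 400.2, 402, 369 and 385 CPM in L2. The L2 levels of the genotypes were thus alike while every control L3 library stood above every Hnf4 RNAi L3 library, and the log2 changes of 0.93 and 2.17 differed by -1.24 (SE 0.12, adjusted p = 1.48e-05). Amy-p, its near-identical neighbour with which reads can be shared, had an interaction of -0.66 (adjusted p = 0.000133).

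The one carbohydrase called lower was Gal, a beta-galactosidase. It had 12.6, 21.8, 6.48 and 7.96 CPM in Hnf4 RNAi L3 midguts, against 21.1, 33.8, 25.4 and 23.6 CPM in Hnf4 RNAi L2 midguts. One of the L3 libraries, replicate 2, overlapped the L2 range. The gene changed by -1.09 on the log2 scale (SE 0.26, adjusted p = 0.00126) in Hnf4 RNAi midguts, against 0.60 (adjusted p = 0.0429) in control midguts, and the interaction was -1.70 (SE 0.36, adjusted p = 0.00668).

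Lipid genes of the enterocyte included some without a called interaction, some that rose less under Hnf4 RNAi and some that rose more. Acbp6, an acyl-CoA binding protein, had 3978, 3722, 3802 and 3776 CPM in Hnf4 RNAi L3 midguts, against 321, 417, 401 and 333 CPM in Hnf4 RNAi L2 midguts (3.38, SE 0.09, adjusted p = 7.23e-14), with an interaction of 0.27 (adjusted p = 0.191). FASN1, the fatty acid synthase, had 2696, 2659, 2138 and 2635 CPM in Hnf4 RNAi L3 midguts, against 1119, 979, 761 and 869 CPM in Hnf4 RNAi L2 midguts (1.44, interaction -0.32, adjusted p = 0.309). Both genes rose in every L3 library relative to every L2 library. Over the list of 12 fatty acid synthesis genes 6 rose and 1 fell, and over the 6 acyl-CoA binding proteins 4 rose and 0 fell. Called interactions were 2 above and 2 below 0 for fatty acid synthesis and 1 above and 1 below 0 for the binding proteins. Above 0 were ATPCL, the ATP citrate lyase (0.53, adjusted p = 0.0122), Baldspot, a fatty acid elongase (0.65, adjusted p = 0.00730), and Acbp4 (0.55, adjusted p = 0.0377), of which ATPCL and Acbp4 lost the call without replicates 1, 2 and 4 of Hnf4 RNAi L3 (0.38 each). The call was also lost without any of 4 single libraries for ATPCL (0.44 to 0.50) and any of 10 for Acbp4 (0.48 to 0.57).

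Men, the malic enzyme that supplies NADPH for fatty acid synthesis, was different. It had 402, 461, 481 and 501 CPM in Hnf4 RNAi L3 midguts, against 263, 261, 229.7 and 247 CPM in Hnf4 RNAi L2 midguts, and 985, 1060.4, 1082 and 1098 CPM in control L3 against 204, 249, 194 and 213 CPM in control L2 midguts. The gene rose in both genotypes, but each control L3 library had more Men than any Hnf4 RNAi L3 library. The changes of 0.88 and 2.30 differed by -1.41 (SE 0.11, adjusted p = 3.12e-06).

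The same held for steps of triglyceride synthesis. The triglyceride and lipid droplet list had 18 genes, of which 9 rose and 2 fell in Hnf4 RNAi midguts, 11 rose and 1 fell in controls, and 3 had a called interaction below 0. mino, the mitochondrial glycerol-3-phosphate acyltransferase that starts glycerolipid synthesis, had 62.5, 75.5, 56.5 and 66.6 CPM in Hnf4 RNAi L3 midguts, against 30.1, 31.0, 28.8 and 33.0 CPM in Hnf4 RNAi L2 midguts, and 318, 345, 297 and 359 CPM in control L3 against 42.6, 56.9, 41.5 and 50.7 CPM in control L2 midguts. It rose by 1.09 in Hnf4 RNAi midguts (SE 0.10, adjusted p = 6.52e-08) and by 2.78 in controls, an interaction of -1.70 (SE 0.14, adjusted p = 4.18e-06). Agpat2, the acyltransferase of the next step, was at 0.25 (adjusted p = 0.0934) in Hnf4 RNAi midguts and rose by 1.45 in controls (interaction -1.20, adjusted p = 0.000514). The lipid droplet protein gene Lsd-1 rose by 3.06 and the triglyceride lipase gene bmm by 1.27 in Hnf4 RNAi midguts, with no called interaction for either.

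Uptake genes showed the same division. Of 11 scavenger receptors of the CD36 family, 5 rose and 2 fell. ninaD, a receptor for carotenoid uptake in the gut, had 641, 1011, 596 and 701 CPM in Hnf4 RNAi L3 midguts, against 67.2, 73.5, 69.3 and 62.1 CPM in Hnf4 RNAi L2 midguts, and 2380.1, 2505, 2110.5 and 2370.3 CPM in control L3 against 89.5, 87.8, 98.4 and 91.3 CPM in control L2 midguts. Its increase of 3.44 (SE 0.13, adjusted p = 2.83e-12) was smaller than that of 4.67 in controls, an interaction of -1.24 (SE 0.17, adjusted p = 0.000268). CG31741, the next gene on 2L (ninaD at 18081628 to 18083608, CG31741 at 18084256 to 18086714, 647 bases apart), had 7.74, 7.37, 3.72 and 5.31 CPM in Hnf4 RNAi L3 midguts, against 1.33, 1.02, 1.27 and 0.702 CPM in Hnf4 RNAi L2 midguts. Its changes were 2.48 in Hnf4 RNAi and 5.31 in control midguts, an interaction of -2.83 (SE 0.41, adjusted p = 0.000409). pes differed in the opposite sense, with 0.99 in Hnf4 RNAi and 0.35 in control midguts (interaction 0.65, adjusted p = 0.00123).

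Of 15 sterol and lipoprotein genes, 8 rose and 2 fell in Hnf4 RNAi midguts, 7 rose and 2 fell in controls, and the interaction was called above 0 for 1 and below 0 for 0. Npc2f, of the family of sterol-binding Niemann-Pick type C2 proteins, had 179, 160.3, 199.9 and 234 CPM in Hnf4 RNAi L3 midguts, against 24.3, 24.96, 26.1 and 26.9 CPM in Hnf4 RNAi L2 midguts. All L3 libraries were above all L2 libraries, and the change of 2.92 exceeded that of 2.12 in control midguts (interaction 0.79, SE 0.12, adjusted p = 0.000671). The list also holds apolpp, whose level followed the fat body transcripts described above. Without replicates 1, 2 and 4 of Hnf4 RNAi L3, 4 of its genes were called lower, and 1 had an interaction above and 1 below 0.

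Peroxisomal fatty acid oxidation differed between the genotypes in most of its genes. Of its 12 genes, 6 rose and 1 fell in Hnf4 RNAi midguts, 9 rose and 1 fell in controls, and the interaction was called below 0 for 7 and above 0 for 1. Acox57D-p, an acyl-CoA oxidase, had 196, 199, 235 and 258 CPM in Hnf4 RNAi L3 midguts, against 104, 104, 109 and 112 CPM in Hnf4 RNAi L2 midguts, and 444, 506, 494 and 420.3 CPM in control L3 against 146, 148, 125 and 128 CPM in control L2 midguts. Its changes of 1.05 and 1.77 differed by -0.71 (SE 0.12, adjusted p = 0.00149). Hacl, a lyase of fatty acid alpha-oxidation, had 168, 244, 137 and 144 CPM in Hnf4 RNAi L3 midguts, against 189.7, 217, 220.1 and 195 CPM in Hnf4 RNAi L2 midguts, and was not called (-0.25, adjusted p = 0.0970). In control midguts it rose by 0.59, and the interaction was -0.84 (SE 0.18, adjusted p = 0.00742). The exception was CG17544, an acyl-CoA oxidase relative, which rose by 1.27 in Hnf4 RNAi midguts and was at 0.27 in control midguts (interaction 1.01, adjusted p = 0.000219). With total scaling the interaction counts of the peroxisomal list were 6 below and 1 above 0.

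In mitochondrial fatty acid oxidation, 4 of 18 genes rose and 0 fell in Hnf4 RNAi midguts, beside 18.8% and 23.9% over all genes tested. In controls 7 rose and 0 fell. The Hnf4 RNAi median of 0.11 turned to -0.15 with total scaling. yip2, a mitochondrial thiolase, had 61.2, 126, 71.3 and 80.5 CPM in Hnf4 RNAi L3 midguts, against 19.4, 23.9, 24.2 and 22.1 CPM in Hnf4 RNAi L2 midguts (1.92, SE 0.16, adjusted p = 1.34e-08), and 527, 560.3, 559 and 560.4 CPM in control L3 against 279, 281, 245 and 277 CPM in control L2 midguts. It rose in both genotypes, and even the highest Hnf4 RNAi L3 library stayed under the lowest control L2 library. The interaction was above 0 (0.89, SE 0.22, adjusted p = 0.0173). CG9547, of the same list, had an interaction below 0 (-0.74, adjusted p = 7.94e-06), at 0.01 in Hnf4 RNAi midguts against a rise of 0.74 in controls. Called interactions in the list were 1 above and 1 below 0, and 3 and 9 of the 18 had one at an unadjusted p under 0.05. Without replicates 1, 2 and 4 of Hnf4 RNAi L3 the called counts were 2 above and 3 below 0. Of 12 peroxins, the proteins that build peroxisomes, 3 had a called interaction below 0 and 0 above.

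**Figure D4:**
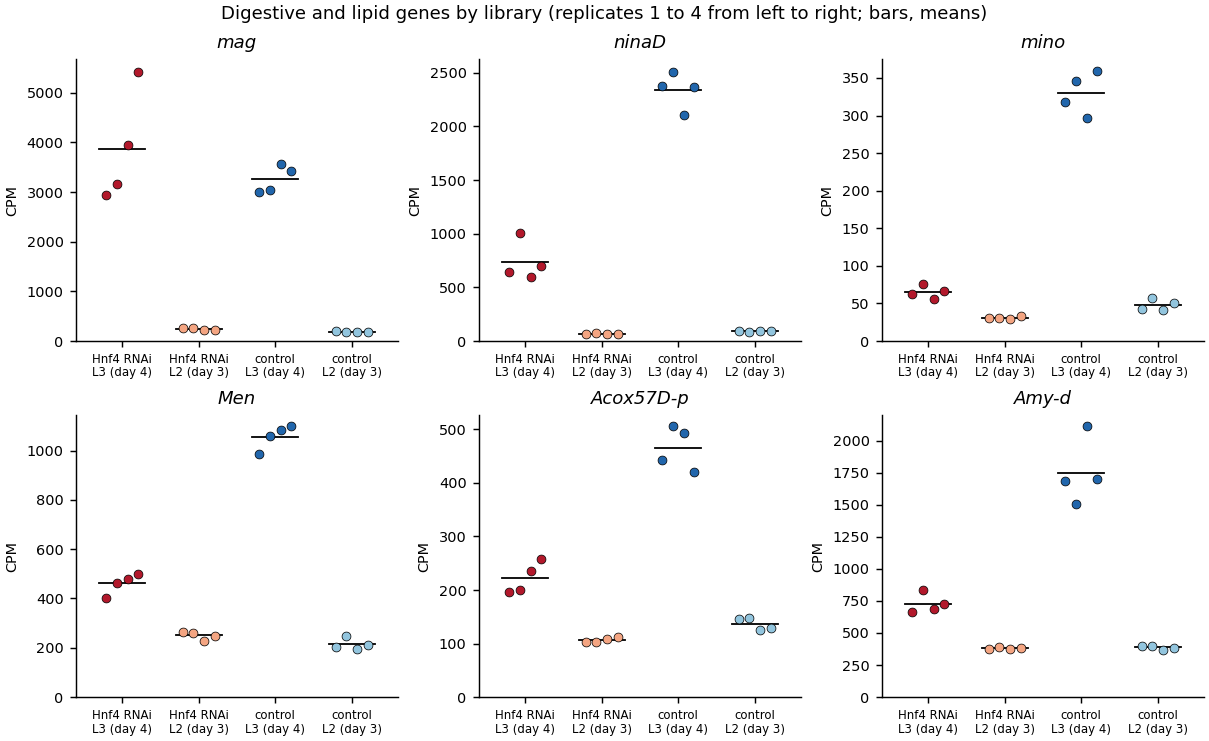
Levels of 6 digestive and lipid genes in CPM (vertical axes, linear, from 0) by library in the 4 groups (horizontal axes, replicates 1 to 4 from left to right, bars are means). mag reached similar levels in L3 midguts of both genotypes, whereas ninaD, mino, Men, Acox57D-p and Amy-d were lower in all 4 Hnf4 RNAi L3 libraries than in any control L3 library.

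Calls in energy metabolism outside lipid oxidation were set beside the 42.7% of all genes called in either direction. Of 60 subunits of the respiratory chain and ATP synthase, 1 was called higher and 2 lower, although 47 had an unadjusted p under 0.05 in the lower direction, the count called lower was 38 with total scaling, and it was 12 without replicates 1, 2 and 4 of Hnf4 RNAi L3. The 13 mitochondrially encoded transcripts gave 0 higher and 0 lower calls (1 and 0 at an unadjusted p under 0.05, and 0 and 0 with DESeq2). Of 19 citric acid cycle genes 1 rose and 5 fell, and of 15 glycolytic genes 2 rose and 0 fell.

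Ldh, the lactate dehydrogenase, had 209, 268, 407 and 461 CPM in Hnf4 RNAi L3 midguts, against 153, 138, 127 and 148 CPM in Hnf4 RNAi L2 midguts, and 49.7, 45.7, 96.4 and 45.5 CPM in control L3 against 100.03, 90.9, 104 and 92.2 CPM in control L2 midguts. All Hnf4 RNAi L3 libraries exceeded all others. It was called in opposite directions, at 1.25 (SE 0.24, adjusted p = 0.000195) in Hnf4 RNAi and -0.71 (adjusted p = 0.0161) in control midguts, with an interaction of 1.95 (SE 0.34, adjusted p = 0.00147).

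Among 17 ecdysone response genes, 5 rose and 5 fell in Hnf4 RNAi midguts and 4 rose and 6 fell in controls, with medians of 0.24 and -0.26. Over all genes tested, 18.8% rose and 23.9% fell in Hnf4 RNAi midguts, and 17.0% and 22.2% in controls. br, the Broad transcription factor induced by the hormone, had 95.9, 65.1, 90.7 and 83.0 CPM in Hnf4 RNAi L3 midguts, against 11.3, 17.5, 12.4 and 9.17 CPM in Hnf4 RNAi L2 midguts (2.73, SE 0.19, adjusted p = 1.11e-09). Hr4, a nuclear receptor of the same cascade, had 1.54, 0.714, 0.497 and 0.611 CPM in Hnf4 RNAi L3 midguts, against 61.1, 55.8, 74.4 and 73.9 CPM in Hnf4 RNAi L2 midguts (-6.27, SE 0.24, adjusted p = 2.57e-12). The L3 and L2 libraries of both genes were thus fully apart, in opposite directions. EcR, the hormone receptor itself, rose by 0.89, and Eip74EF, an early-response transcription factor, by 2.22. ImpE2, an ecdysone-inducible gene of epithelial morphogenesis, had no count in Hnf4 RNAi L3 midguts, against 7.79, 4.86, 11.9 and 6.76 CPM in Hnf4 RNAi L2 midguts, at least 521-fold lower. The Hnf4 RNAi median of the list turned to -0.02 with total scaling. The interaction was called above 0 for 2 genes of the list, the nuclear receptor Eip78C (1.23, adjusted p = 0.0135) and the secreted insulin antagonist ImpL2 (0.52, adjusted p = 0.0414, lost without any of 11 single libraries at 0.44 to 0.56), and below 0 for 1, ImpE2, where all Hnf4 RNAi L3 libraries were at 0 and no size is given. The call of ImpE2 was lost without control L3 replicate 2 (adjusted p = 0.0848), and without replicates 1, 2 and 4 of Hnf4 RNAi L3 the counts were 1 above and 0 below 0.

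The uptake and conversion of the hormone had 5 tested genes, of which 4 rose and 1 fell. Oatp74D, an ecdysone importer, had 81.0, 80.7, 104 and 109 CPM in Hnf4 RNAi L3 midguts, against 8.51, 9.47, 8.51 and 7.50 CPM in Hnf4 RNAi L2 midguts (3.46, SE 0.12, adjusted p = 7.58e-13). shd, the hydroxylase that makes the active form 20-hydroxyecdysone, had 117, 102, 128 and 146 CPM in Hnf4 RNAi L3 midguts, against 24.3, 20.2, 15.9 and 14.3 CPM in Hnf4 RNAi L2 midguts (2.72, SE 0.20, adjusted p = 2.89e-09). Eo, an ecdysone oxidase, rose by 1.82, while Cyp18a1, the hydroxylase that clears the hormone, was at 0, 0, 0 and 0.134 CPM in Hnf4 RNAi L3 midguts, against 1.53 to 2.91 CPM in Hnf4 RNAi L2 midguts. No gene of this list had a called interaction (1 above and 1 below 0 at an unadjusted p under 0.05, and 0 and 0 with DESeq2). For juvenile hormone, 3 of 6 genes rose and 1 fell, with JhI-26 at 1.47 and the epoxide hydrolase Jheh3 at 0.90, and Kr-h1, the main transcriptional target of the hormone, rose by 0.64 (adjusted p = 0.00166), a call that total scaling removed.

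The stress signalling genes called in Hnf4 RNAi midguts were all higher in L3. Of 17 genes of the JNK and JAK-STAT pathways tested, 10 rose and 0 fell in Hnf4 RNAi midguts, against 2 and 4 in controls, and 6 had a called interaction above 0 (2.59% of all genes tested) and 0 below. The JNK pathway relays cellular stress to the transcription factors Jra and kay, and the JAK-STAT pathway carries signals from secreted cytokines such as upd2 and upd3. Both are known in the adult fly midgut for driving regeneration after damage. With total scaling 7 genes of the list rose in Hnf4 RNAi midguts.

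upd3 had 5.80, 4.35, 17.1 and 8.88 CPM in Hnf4 RNAi L3 midguts, against 2.09, 1.87, 2.18 and 2.09 CPM in Hnf4 RNAi L2 midguts. In control midguts it had 1.24, 0.666, 1.10 and 0.937 CPM in L3 against 2.15, 2.15, 4.81 and 1.61 CPM in L2. The Hnf4 RNAi L3 libraries were above all others except that replicate 2 lay under the highest control L2 library. The log2 changes were 2.13 (SE 0.38, adjusted p = 0.000102) in Hnf4 RNAi and -1.45 (adjusted p = 0.00499) in control midguts, and the interaction was 3.59 (SE 0.56, adjusted p = 0.000639). upd2, the second cytokine, had 1.47, 1.124, 1.62 and 1.64 CPM in Hnf4 RNAi L3 midguts, against 0.358, 0.819, 0.717 and 0.702 CPM in Hnf4 RNAi L2 midguts, with changes of 1.16 and -1.12 in the 2 genotypes (interaction 2.28, SE 0.47, adjusted p = 0.00539).

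Ets21C, a transcription factor downstream of JNK, had 6.78, 10.4, 18.9 and 10.9 CPM in Hnf4 RNAi L3 midguts, against 2.88, 4.01, 3.57 and 3.22 CPM in Hnf4 RNAi L2 midguts, and 0.643, 0.833, 2.51 and 0.893 CPM in control L3 against 3.71, 3.93, 4.62 and 2.53 CPM in control L2 midguts. It rose in Hnf4 RNAi (1.78, SE 0.34, adjusted p = 0.000205) and fell in control midguts (-1.59, adjusted p = 0.00125), an interaction of 3.36 (SE 0.50, adjusted p = 0.000482). kay, the Fos subunit of the AP-1 factor, had 171, 184, 248 and 178 CPM in Hnf4 RNAi L3 midguts, against 129, 103, 116 and 98.3 CPM in Hnf4 RNAi L2 midguts. Its change of 0.81 (SE 0.14, adjusted p = 4.92e-05) differed from that of -0.22 in controls by 1.03 (SE 0.19, adjusted p = 0.00259). Further members rose in Hnf4 RNAi midguts without a called interaction: puc, the phosphatase that feeds back on JNK (0.68), Mmp1, a matrix metalloprotease (0.81), and Stat92E, the STAT factor (0.73).

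Socs36E, the feedback inhibitor of JAK-STAT, had 28.1, 93.5, 150.1 and 88.5 CPM in Hnf4 RNAi L3 midguts, against 55.8, 43.5, 67.5 and 26.9 CPM in Hnf4 RNAi L2 midguts. Replicate 1 of the L3 group lay within the L2 range, and the change of 0.89 (adjusted p = 0.1099) was not called. Without that replicate it was 1.19 (adjusted p = 0.0234), and without control L3 replicate 3 it was 0.89 (adjusted p = 0.0473). The gene fell by 1.58 in control midguts, and the interaction of 2.47 (SE 0.68, adjusted p = 0.0316) lost its call when any of 8 single libraries was removed, with values of 2.14 to 2.42 and adjusted p of 0.0613 to 0.0686. Jra, the Jun subunit, rose by 0.78, and its interaction of 0.54 (adjusted p = 0.0253) lost its call without any of 5 single libraries (0.48 to 0.52).

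Replicate 3 of Hnf4 RNAi L3, the library without fat body transcripts, was the highest of its group for 11 of the 17 stress genes (64.7%), among them upd3, Ets21C, kay, puc, Mmp1, Stat92E and Socs36E, and for 25.6% of all genes tested. It was not the highest for upd2, where replicate 4 had 1.64 CPM and replicate 3 had 1.62 CPM. Without the other 3 libraries of the group, 12 genes of the stress list rose, 0 fell and 10 had an interaction above 0. The plots of stress and immune genes show each library.

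**Figure D5:**
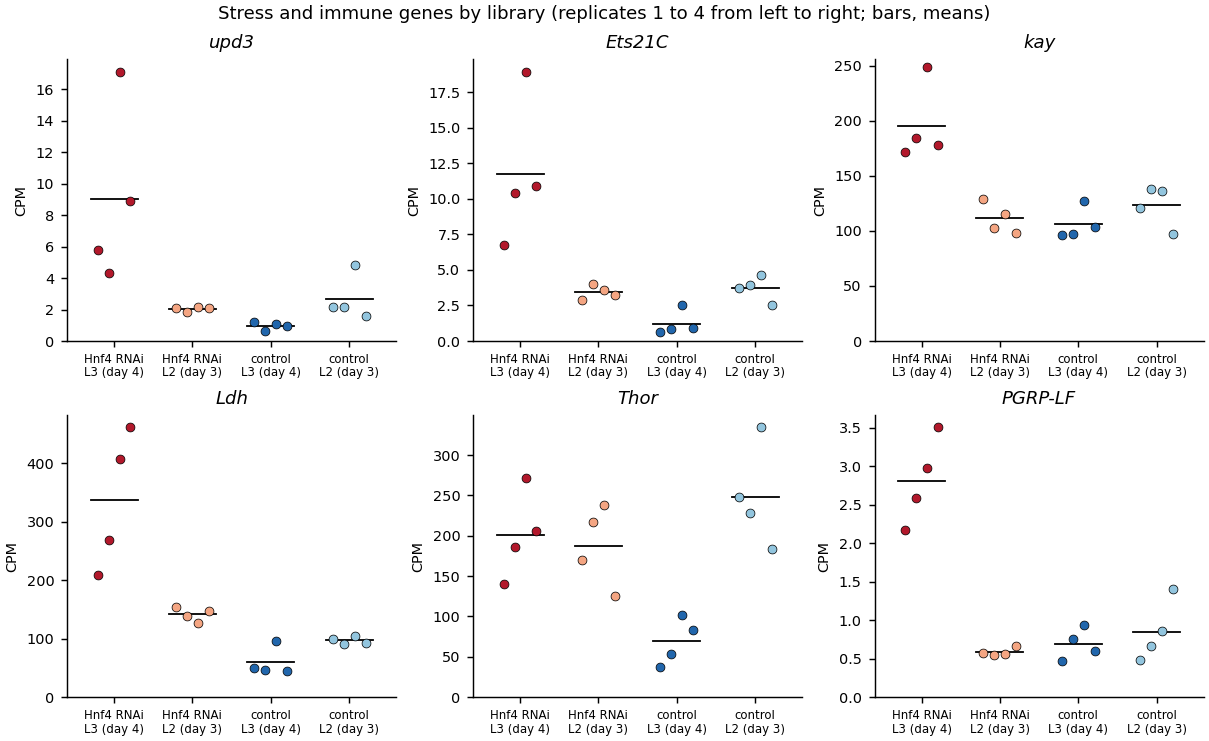
Levels of 6 stress and immune genes in CPM (vertical axes, linear, from 0) by library in the 4 groups (horizontal axes, replicates 1 to 4 from left to right, bars are means). For upd3, Ets21C, kay, Ldh and PGRP-LF the Hnf4 RNAi L3 mean is the highest of the 4 groups, and for Thor control L3 is the lowest.

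Thor, the translation inhibitor 4E-BP, had 140.2, 186, 271 and 206 CPM in Hnf4 RNAi L3 midguts, against 169.7, 217, 238 and 125 CPM in Hnf4 RNAi L2 midguts, and 37.3, 53.3, 102 and 83.1 CPM in control L3 against 248, 228, 335 and 184 CPM in control L2 midguts. The 2 Hnf4 RNAi groups overlapped and the change of 0.10 (SE 0.28, adjusted p = 0.774) was not called, whereas the control groups were apart, at -1.85 (adjusted p = 2.80e-05). The interaction was 1.95 (SE 0.40, adjusted p = 0.00579). Endoplasmic reticulum genes rose in part: of 29, 12 were higher and 0 lower in Hnf4 RNAi L3 midguts, and 4 were higher with total scaling. In controls 8 were higher and 1 lower, and called interactions were 2 above and 1 below 0. The co-chaperone gene Sil1 was at 0.92 in Hnf4 RNAi and -0.34 in control midguts (interaction 1.26, adjusted p = 0.000538). Cnx99A, of the same list, was at 0.21 in Hnf4 RNAi and 0.94 in control midguts (interaction -0.73, adjusted p = 0.000123). Of 13 heat shock protein genes, 2 rose and 4 fell, beside 18.8% and 23.9% over all genes tested. The lower calls of Hsp26 and Hsp27 were lost without replicate 1 of Hnf4 RNAi L2 (-0.87, adjusted p = 0.225, and -0.84, adjusted p = 0.133), and under other settings.

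Immune recognition genes rose in Hnf4 RNAi midguts. Of 11 peptidoglycan recognition proteins, 7 rose and 0 fell, against 4 and 0 in controls. PGRP-SC2, an amidase that degrades peptidoglycan, had 1181, 1143, 1326 and 1084 CPM in Hnf4 RNAi L3 midguts, against 80.7, 114, 131 and 111 CPM in Hnf4 RNAi L2 midguts (3.44, SE 0.14, adjusted p = 5.15e-12), and rose by 3.17 in controls. PGRP-SD, a secreted sensor of the Imd pathway, had 7.41, 2.64, 10.6 and 14.1 CPM in Hnf4 RNAi L3 midguts, against 0.199, 0.152, 0.473 and 0.148 CPM in Hnf4 RNAi L2 midguts. Its change of 5.12 exceeded that of 1.87 in controls (interaction 3.25, SE 0.67, adjusted p = 0.00579). PGRP-LF, a membrane inhibitor of Imd signalling, was at 2.17, 2.59, 2.98 and 3.51 CPM in Hnf4 RNAi L3 midguts, against 0.577, 0.546, 0.564 and 0.665 CPM in Hnf4 RNAi L2 midguts, with an interaction of 2.55 (SE 0.42, adjusted p = 0.00105).

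Peptide effectors mostly rose. Of the 6 antimicrobial and drosomycin-like peptide genes that could be tested, out of 21, 5 were higher and 0 lower in both genotypes. Their summed level was 255 to 394 CPM in Hnf4 RNAi L3 midguts, against 73.8 to 125 CPM in Hnf4 RNAi L2 midguts. Called interactions were 1 above 0, Drsl3 (2.21, adjusted p = 0.0284), and 1 below 0, Drsl2 (-1.44, adjusted p = 0.0335). Each of these calls was lost when some single libraries were left out. Drsl2 had means of 29.5 CPM in Hnf4 RNAi L3 and 29.2 CPM in Hnf4 RNAi L2 midguts (0.01, not called). In control midguts its means were only 0.908 CPM in L3 and 0.322 CPM in L2 (1.45). AttD, an attacin, was at 5.92, 1.90, 2.59 and 3.19 CPM in Hnf4 RNAi L3 midguts, against 0.0398, 0.0303, 0.107 and 0.0370 CPM in Hnf4 RNAi L2 midguts (5.90, SE 0.77, adjusted p = 3.10e-06). Drsl5 was at 2.94, 1.45, 3.05 and 2.27 CPM in Hnf4 RNAi L3 midguts, against 0.239, 0.0910, 0.0458 and 0.111 CPM in Hnf4 RNAi L2 midguts (4.34). Both also rose in controls, with no called interaction. Of 25 autophagy and lysosome genes 15 rose and 0 fell, against 14 and 0 in controls, with 1 called interaction above and 2 below 0. Their summed level was 11138 to 16742 CPM in Hnf4 RNAi L3 midguts, overlapping the 13672 to 15564 CPM in Hnf4 RNAi L2 midguts. In controls it was 24166 to 25559 CPM in L3 against 15426 to 15916 CPM in L2. The protease gene cathD had 485, 368, 600.0 and 573 CPM in Hnf4 RNAi L3 midguts, against 135, 145, 148 and 141 CPM in Hnf4 RNAi L2 midguts (1.83, SE 0.16, adjusted p = 2.22e-08).

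Detoxification families held genes called in both directions. Of 66 cytochrome P450 genes, 30 rose and 7 fell. Cyp6t1 had 89.4, 84.2, 74.3 and 79.6 CPM in Hnf4 RNAi L3 midguts, against 5.05, 6.25, 6.44 and 4.86 CPM in Hnf4 RNAi L2 midguts (3.85, SE 0.11, adjusted p = 7.23e-14). Cyp6a23, with 1184, 1269, 1603 and 1574 CPM in Hnf4 RNAi L3 midguts, against 703, 662, 664 and 645 CPM in Hnf4 RNAi L2 midguts, rose by 1.07 and differed from its control change of 0.32 (interaction 0.75, adjusted p = 0.00119). Cyp311a1, with 53.4, 53.2, 41.98 and 44.5 CPM in Hnf4 RNAi L3 midguts, against 19.3, 23.9, 24.4 and 22.1 CPM in Hnf4 RNAi L2 midguts, rose by 1.11, less than the 2.10 in controls (interaction -0.998, adjusted p = 0.000133), and Cyp316a1 and Cyp318a1 had interactions of -1.59 and -1.26. In all, 5 P450 genes had a called interaction above and 6 below 0, and 10 and 27 had one at an unadjusted p under 0.05. Without replicates 1, 2 and 4 of Hnf4 RNAi L3 the called counts were 9 above and 7 below 0, and Cyp318a1 was no longer called (-0.75, adjusted p = 0.0571). Of 30 UDP-glycosyltransferases, which attach sugars to small molecules, 8 rose and 10 fell, beside 18.8% and 23.9% over all genes tested.

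Ugt37A1 and Ugt37A3 of that family went apart. Ugt37A1 had 18.7, 10.8, 14.0 and 5.23 CPM in Hnf4 RNAi L3 midguts, against 76.3, 42.6, 29.0 and 40.4 CPM in Hnf4 RNAi L2 midguts, and 6.30, 6.65, 7.45 and 9.35 CPM in control L3 against 5.005, 2.30, 5.23 and 3.25 CPM in control L2 midguts. It fell in Hnf4 RNAi midguts (-1.95, SE 0.34, adjusted p = 7.90e-05) and was at 0.91 (adjusted p = 0.0370) in controls, an interaction of -2.85 (SE 0.49, adjusted p = 0.00150). Ugt37A3 had 519, 678, 684 and 889 CPM in Hnf4 RNAi L3 midguts, against 343, 179.5, 146 and 267 CPM in Hnf4 RNAi L2 midguts, with changes of 1.57 and 0.05 in the 2 genotypes (interaction 1.51, SE 0.34, adjusted p = 0.0107). Of 32 glutathione S-transferases 7 rose and 6 fell, shares near the 18.8% and 23.9% over all genes tested, including GstS1 with 237, 216, 153 and 137 CPM in Hnf4 RNAi L3 midguts, against 616, 623, 618 and 561 CPM in Hnf4 RNAi L2 midguts (-1.70, interaction -0.84, adjusted p = 0.00940).

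Some of the highest and lowest interactions belonged to no list. CG14205 had 121, 102, 156 and 71.5 CPM in Hnf4 RNAi L3 midguts, against 136, 143, 160.1 and 96.6 CPM in Hnf4 RNAi L2 midguts, and 9.69, 10.3, 12.4 and 5.80 CPM in control L3 against 106, 123, 147 and 102 CPM in control L2 midguts. It was not called in Hnf4 RNAi midguts (-0.25, adjusted p = 0.344) and fell by 3.64 in controls, an interaction of 3.39 (SE 0.33, adjusted p = 1.46e-05). CG14219, its neighbour on the X chromosome (CG14219 at 19587348 to 19590170, CG14205 at 19592609 to 19595548, with no other gene between), had 128, 80.8, 127 and 98.7 CPM in Hnf4 RNAi L3 midguts, against 106, 113, 102 and 90.5 CPM in Hnf4 RNAi L2 midguts. It fell by 2.17 in controls, and its interaction was 2.24 (SE 0.26, adjusted p = 6.39e-05).

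CG10911 and CG5550 also had interactions well above 0. CG10911 had 557, 408, 573 and 434 CPM in Hnf4 RNAi L3 midguts, against 371, 382, 431 and 375 CPM in Hnf4 RNAi L2 midguts (0.34, not called), and fell by 1.88 in controls (interaction 2.22, adjusted p = 3.12e-06). CG5550 had 379, 371, 415 and 301 CPM in Hnf4 RNAi L3 midguts, against 128, 179, 220.3 and 162 CPM in Hnf4 RNAi L2 midguts, rose by 1.09, and fell by 1.35 in controls (interaction 2.44, SE 0.26, adjusted p = 3.24e-05). CG31810 and CG15818 rose in both genotypes, more so in Hnf4 RNAi midguts, with 2.79 and 2.85 against 0.69 and 0.76 in controls.

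On the negative side, MFS9, of the major facilitator family of transporters, had 10.8, 10.8, 4.02 and 3.86 CPM in Hnf4 RNAi L3 midguts, against 28.5, 33.5, 29.7 and 27.8 CPM in Hnf4 RNAi L2 midguts, and 12.8 to 14.3 CPM in control L3 against 11.6 to 12.3 CPM in control L2 midguts. The Hnf4 RNAi L2 libraries were the highest of all 16. It fell by 2.02 in Hnf4 RNAi midguts (SE 0.25, adjusted p = 1.84e-06) and was at 0.17 in controls (interaction -2.19, adjusted p = 0.000756). acs, an amino acid transporter gene, had 10.3, 17.0, 13.8 and 12.7 CPM in Hnf4 RNAi L3 midguts, against 1.491, 1.91, 2.18 and 2.27 CPM in Hnf4 RNAi L2 midguts, and 65.4, 67.3, 90.5 and 76.4 CPM in control L3 against 3.23, 3.45, 3.40 and 3.27 CPM in control L2 midguts. It rose in both, by 2.77 and 4.49, with an interaction of -1.72 (SE 0.21, adjusted p = 9.29e-05).

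Transporters and barrier genes outside these extremes varied. Of 25 carriers of sugars, amino acids and peptides, 6 were higher and 6 lower in Hnf4 RNAi L3 midguts, near the 18.8% and 23.9% over all genes tested, such as the amino acid carriers sbm (3.14) and mnd (-1.65). Of 16 mucins and peritrophic matrix proteins, which line the gut lumen, 9 rose and 2 fell, and Muc55B had 3705, 3497, 4938 and 5102 CPM in Hnf4 RNAi L3 midguts, against 2467, 1720.4, 1512 and 1848 CPM in Hnf4 RNAi L2 midguts (1.19). Of 12 septate junction and polarity genes 5 rose and 0 fell, including Tsp2A (0.87) and hoka (0.75), which seal the midgut epithelium, and 1 rose with total scaling. Of 20 metallothionein, ferritin and metal transporter genes 9 rose and 1 fell, with the copper importer Ctr1B at 1.72. The 31 proteasome subunits gave 0 higher and 0 lower calls, yet 31 had an unadjusted p under 0.05 in the higher direction, with a median of 0.36 (0 and 0 called with DESeq2).

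Markers of the cells that a dissected midgut holds were measured beside these results. The 11 enterocyte markers summed to 7874 to 8562 CPM in Hnf4 RNAi L3 midguts, against 4887 to 5169.6 CPM in Hnf4 RNAi L2 midguts, and 7 rose and 0 fell, so the defining markers of the labelled tissue were present at both instars. The 13 progenitor and precursor markers summed to 276 to 341 CPM in Hnf4 RNAi L3 midguts, against 186 to 204 CPM in Hnf4 RNAi L2 midguts, and 8 rose, among them the progenitor transcription factors Sox21a (2.05) and Sox100B (1.55). Both also rose in controls, with no called interaction. Of 15 enteroendocrine markers 4 rose and 2 fell, beside 18.8% and 23.9% over all genes tested. The peptide hormone gene ITP had 21.5, 19.8, 22.6 and 22.0 CPM in Hnf4 RNAi L3 midguts, against 6.96, 7.57, 6.73 and 8.10 CPM in Hnf4 RNAi L2 midguts (1.55, interaction 0.83, adjusted p = 0.000639).

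Visceral muscle markers summed to 4993 to 7010.2 CPM in Hnf4 RNAi L3 midguts, against 7024 to 9234 CPM in Hnf4 RNAi L2 midguts. Of 16, 7 were lower and 2 higher, beside 23.9% and 18.8% over all genes tested. Their median of -0.45 was -0.29 without replicates 1, 2 and 4 of Hnf4 RNAi L3. Hemocyte markers summed to 248 to 322 CPM in Hnf4 RNAi L3 midguts, against 184 to 227 CPM in Hnf4 RNAi L2 midguts. Of 8, 4 were higher, among them the prophenoloxidase genes PPO1 and PPO2 at no more than 2.99 CPM, and 1 was lower. Malpighian tubule markers summed to 178 to 199.7 CPM in Hnf4 RNAi L3 midguts, against 186 to 191 CPM in Hnf4 RNAi L2 midguts. Of 6 such markers 3 were higher and 0 lower, and of 7 neuronal markers 1 rose and 1 fell. No salivary gland marker had enough counts to be tested. Of 17 transcription factors that pattern midgut regions 7 fell and 2 rose, with vvl at -2.15. The part of these other cells in the changes reported above was not tested.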

How the data were processed

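Pools of dissected larval midguts were profiled by stranded, poly(A)-selected RNA sequencing. According to the submitters' notes, the authors trimmed reads with Trimmomatic 0.39 and aligned them with STAR 2.7.10b to BDGP6, with FastQC 0.11.7 and MultiQC 1.12 for quality and DESeq2 1.49.3 in R 4.5.1 for their own comparisons. How reads were counted, with which strand option and annotation version, is not given in the sources used here. Raw read counts per gene and CPM values were deposited by the authors, and the CPM equalled the counts scaled to library totals (largest difference 4.91e-11). A further deposited table holds the authors' own log2 fold changes and adjusted p-values, which were not used.

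The count table had 24254 entries, of which 17873 were genes. The other 6381 features held 0.0365% to 0.0489% of counts and were left out. Totals of 44546248 to 58986079 counts per Hnf4 RNAi library make counting error small except for genes near 0. The 4 biological replicates of each group set the spread. Genes were kept by filterByExpr (minimum count 10, total 15). Counts of 16 libraries were fitted with edgeR 4.0.16 (R 4.3.3, limma 3.58.1), TMM scaling, the quasi-likelihood test and 1 mean per group. The comparison of L3 with L2 was made in each genotype and as an interaction. Every adjusted p is the Benjamini-Hochberg value over 9801 genes from that test, unless DESeq2 is named. A called gene had an adjusted p under 0.05 and a log2 fold change of at least 0.5 in size. CPM in the text are scaled by TMM, and SE was derived from the fold change and its F statistic. Hnf4 was also tested by an exact two-sided permutation test.

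Members and lists were chosen with earlier results of these data known. Named by rule were Hnf4, the 12 highest and 12 lowest called changes with at least 10 CPM that hold without Hnf4 RNAi L3 replicates 1, 2 and 4, the 6 highest that do not, the 6 largest gains and losses of CPM, the 8 highest and 8 lowest interactions, 6 genes with opposite calls, the 2 highest and 2 lowest called members of each of 60 lists, and mag, EcR, br, Eo, shd, Myc, Lsp1beta, Kr-h1, Thor and foxo. The 12 highest, the 12 lowest and the largest gains and losses were taken among genes whose L3 and L2 libraries did not overlap. Other genes, such as apolpp, fon, puc, Mmp1, Stat92E and list members named for their interaction, were chosen after their values were seen. Of the list entries 1461 matched a gene and 19 did not. Alternatives were other scalings and filters, DESeq2 1.42.0, a replicate block, a fat body covariate, and leaving out libraries. Promoter motifs were not analysed here.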

Additional observations from a re-analysis of the deposited data

Results flagged for a closer look

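Over 71 genes, examined group by group for a library that stands apart, 1 group had one, where chance gives about 1 in 20 groups: CG30082 in Hnf4 RNAi L3 midguts, where replicate 3 had 20.37 CPM and the other libraries 15.6 to 16.2 CPM.

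The change with instar differed between Hnf4 RNAi and control midguts, by the interaction test in edgeR, for 22 of these 71 genes, beside the other genes whose called interactions were given with their lists. All values that follow are log2 interactions, Hnf4 RNAi minus control. Among genes of stress signalling they were 3.59 for upd3, 3.36 for Ets21C, 2.47 for Socs36E and 2.28 for upd2, and for the metabolic and growth regulators Ldh and Thor they were 1.95 each. Among uncharacterised genes they were 3.39 for CG14205, 2.44 for CG5550, 2.24 for CG14219, 2.22 for CG10911, 2.10 for CG31810 and 2.09 for CG15818. Lsp1gamma, a fat body transcript, had 4.28, and its values followed the 3 Hnf4 RNAi L3 libraries with fat body transcripts. Interactions below 0 were -2.85 for Ugt37A1, -2.19 for MFS9, -1.94 for CG32564, -1.72 for acs, -1.72 for CG18179, -1.70 for Gal, -1.70 for mino, -1.59 for CG32444 and -1.15 for Jhbp14.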

How the results depend on the processing

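Scaling by library totals moved the median gene to -0.28 in Hnf4 RNAi and -0.29 in control midguts and gave 1116 higher genes in Hnf4 RNAi, and 901 higher and 3361 lower in control midguts. The share of higher calls was then 25.0%, against 44.1% with TMM, in Hnf4 RNAi midguts, 21.1%, against 43.4%, in control midguts, and 59.4%, against 51.5%, for the interaction. With a mean of at least 10 CPM required, 1458 genes were lower in Hnf4 RNAi and 1319 in control midguts, since fewer genes were tested. Without Hnf4 RNAi L3 replicates 1, 2 and 4, where the remaining library, replicate 3, is assumed to vary like the other groups, 464 interactions were above 0, and 500 when control L3 replicate 3 was left out too; the cause was not tested. Fbp2 then reversed to -0.83 in both settings, and the interaction of Lsp1gamma reversed to -0.99 and -0.57. With a fat body covariate Fbp2 was at -4.08, but the covariate is a sum of markers that includes Fbp2, so that fit cannot test it. Leaving out 1 library at a time gave 1765 to 1875 higher and 2242 to 2403 lower genes in Hnf4 RNAi midguts, 195 (without Hnf4 RNAi L2 replicate 4) to 309 interactions above and 186 to 279 below 0, and 1557 to 1678 higher and 2094 to 2275 lower genes in control midguts. Of the other results for single genes, 72 gained and 437 lost a call under an alternative. In 13935 the call, or the lack of one, was unchanged, so this number includes results that were never called. Samples with the same number did not deviate together (24 pairs, correlations -0.168 to 0.0861). The labels do not say whether the numbers pair the samples, and these correlations cannot exclude it. A replicate block gave 1811 higher and 2329 lower genes in Hnf4 RNAi midguts and 255 and 229 interactions. DESeq2 gave 1910 and 2316, and 328 and 283 interactions. Genes near 0 counts are limited by depth.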
